A study of Mus musculus with 89 samples.

Results

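Neutrophil regions at the interface of tumour and stroma were compared with neutrophil regions inside the stroma in untreated mouse squamous cell carcinoma. The 28 segments were chosen by the deposited annotation alone, as all those it places at the naive interface (13) or in the naive stroma (15), out of 89 segments in the series. No measured value entered that choice. A segment is the illuminated area from which the tags of one library were collected.

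The series was set up to read neutrophils region by region in the tumour microenvironment and their response to immunotherapy. Expression was read with the GeoMx digital spatial profiler, in which tagged oligonucleotide probes hybridise to RNA on a tissue section and light releases the tags of a chosen region for sequencing. Regions were picked on stained images of fresh frozen tissue by morphology, per the labels' protocols. The labels give every segment the cell type neutrophil. Both groups are untreated (naive) and lie on 1 of the 3 slides and on 1 collection plate, so neither slide nor plate differs between them. The scan name of this slide carries the word HRass, and that of the relapse slide carries DMBA. The annotation also calls the relapse slide treated, and which name holds was not settled. The strain, age, sex, genotype, immunotherapy agent and number of mice are not stated in the labels or the annotation.

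Neutrophils are short-lived granulocytes that leave the blood and settle in tumours, often where tumour cells meet connective tissue. The stroma around a carcinoma is built by fibroblasts, which secrete fibrillar collagen, and is patrolled by macrophages, which take up dead cells, lipid and haem. MHC class I molecules present peptides from inside a cell on its surface, and need the light chain B2m to get there. RNA of these neighbouring cells enters a segment together with that of its neutrophils, and fewer cells of a type and less RNA per cell cannot be told apart in such data.

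The positions of the segments fell into 5 separate tissue pieces on the untreated slide. The annotation does not name the pieces, and whether a piece is a tumour or a mouse of its own is not stated in the labels or the annotation. Piece 1 held 8 interface and 2 stroma segments, and piece 2 held 1 interface and 3 stroma segments. Piece 3 held 6 stroma segments, piece 4 held 4 interface segments and piece 5 held 4 stroma segments. Only pieces 1 and 2 therefore held both regions, and in the other 3 the region and the piece cannot be told apart. Segments of a piece share tissue, so all p-values over segments given here are too small.

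**Figure D1:**
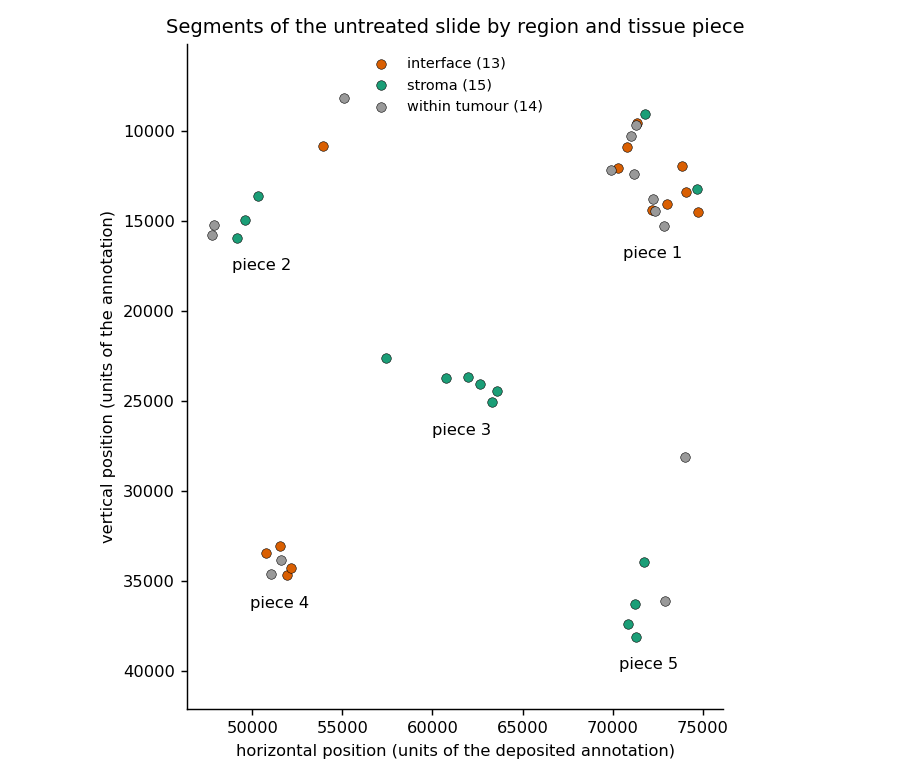
Position of the 42 segments of the untreated slide, with horizontal and vertical position in the units of the deposited annotation and 1 point per segment coloured by region. The 13 interface segments lie in pieces 1, 2 and 4 and the 15 stroma segments in pieces 1, 2, 3 and 5; the 14 grey segments within the tumour did not enter the comparison.

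Every target carries at least 1 count, taken here as the floor, and depth is the total of what lies above it. Depth ranged from 5831 to 66166 (median 18307) at the interface and from 3124 to 96548 (median 10736) in stroma. Mean log2 depth differed between the regions by 0.24 (two-sided permutation test over segments, p = 0.668). Within pieces it was -1.99 (exact permutation test, p = 0.05, 9 interface and 5 stroma segments), and leaving out a piece gave -0.32 to 0.89. The interface segment of piece 2 had 6185 counts against 30779 to 96548 in the 3 stroma segments of that piece. Levels are given as counts above the floor per 10000 counts of the segment. A single count was worth 0.151 to 1.71 on this scale at the interface and 0.104 to 3.20 in stroma, so levels below that are at the limit of what a segment can show. Of all values in the 28 segments, 55.8% were at the floor.

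In the pooled segments 11 of 25 fibroblast and matrix genes, 4 of 21 macrophage genes and 3 of 9 MHC class I genes were called lower at the interface. Called or not, 25, 20 and 6 of these tested genes had a difference below 0. Counts of targets that fell or rose are counts of calls. Apoe, Col3a1 and B2m fell most, and Clec2j and Sesn3 rose most. In the pieces that hold both regions these 5 differences were smaller or turned round. Within piece 1 all 5 were smaller, at -0.63, -0.56, -0.42, 0.34 and 0.22. Within piece 2, with 1 interface segment, those of Apoe, Col3a1 and B2m turned round (1.12, 0.42 and 1.56). Those of Clec2j and Sesn3 were smaller there and stayed above 0 (1.01 and 0.60). Limma with the piece as a random block called 49 of 11190 tested targets (0.438%) at an adjusted p under 0.05. Of these, 44 were lower (0.393%) and 5 higher (0.0447%) at the interface, while the median difference over all tested targets was 0.06. The correlation of segments of a piece estimated in this fit was 0.0126, so the random block adjusted little for the piece. With no block 63 targets were called, and the difference of Apoe was -4.04. Differences are interface minus stroma on the log2(level + 1) scale, which understates the change of low targets. With the piece as a fixed block, which compares regions only inside pieces 1 and 2, 1 target was called (0.00894%), and 484 had an unadjusted p under 0.05. The count also moved with single pieces: it was 7 without piece 1, 32 without piece 3, 16 without piece 4 and 89 without piece 5. Without piece 1, and so with 10 fewer segments, the differences of Apoe, Col3a1 and B2m were -3.95, -3.12 and -2.85 and still called. Those of Clec2j and Sesn3 were 0.86 and 0.88 and not called. The interface was then 4 segments of piece 4, which holds no stroma segment, and 1 of piece 2. These values therefore cannot show whether the difference follows the region or the piece.

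Apoe, the apolipoprotein that macrophages secrete in quantity, had the largest fall. Its gene spans chromosome 7 from 19696244 to 19701310 (GRCm38.p6, protein coding). At the interface its level was 9.73 ± 33.03 (SD, n = 13), with a median of 0.332. The interface segments of pieces 1 and 4 all lay between 0 and 2.16, and the interface segment of piece 2 had 119.6. In stroma the level was 48.6 ± 32.4 (SD, n = 15), with a median of 41.6. The 2 stroma segments of piece 1 had 1.62 and 0.955, the 3 of piece 2 had 72.1, 28.8 and 76.8, and those of pieces 3 and 5 lay between 14.35 and 113.9. The groups thus overlapped only through the pieces that hold both regions. The difference was -3.93 (SE 0.385, adjusted p = 2.52e-20, limma). It was -0.07 (SE 0.541, adjusted p = 0.999) with the piece as a fixed block, -0.63 within piece 1 and 1.12 within piece 2.

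**Figure D2:**
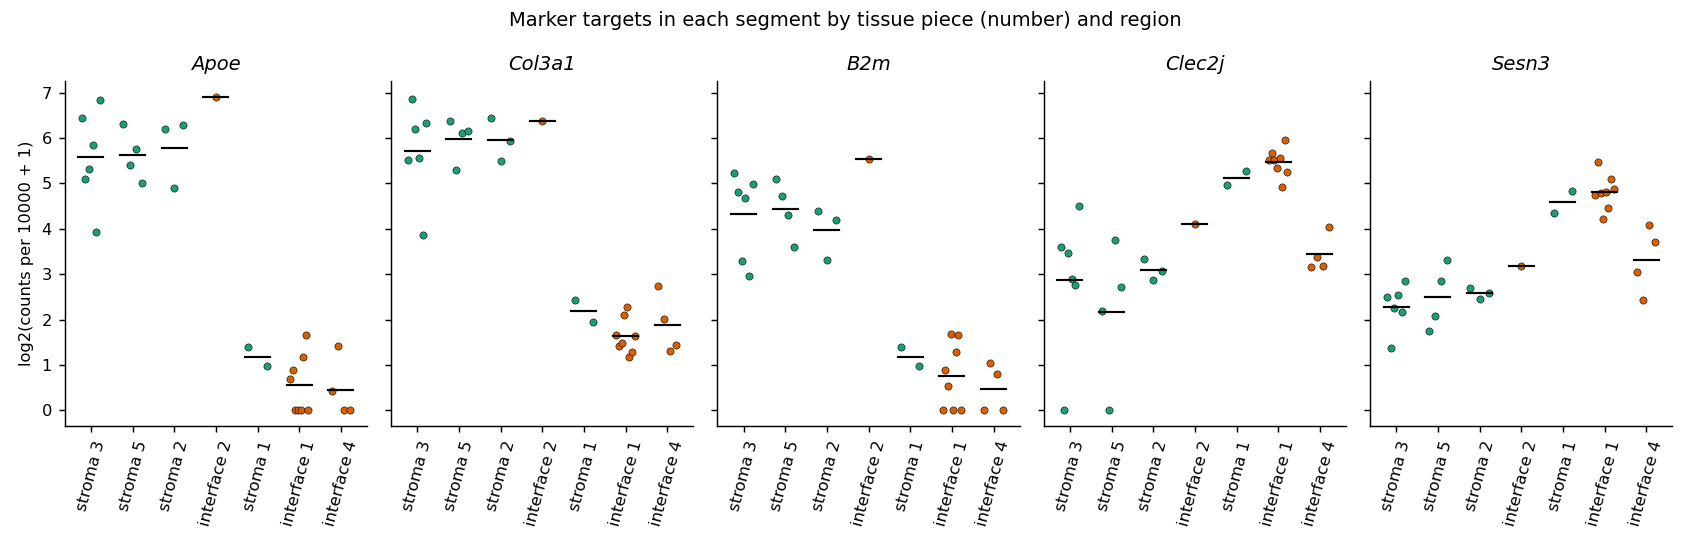
Level of Apoe, Col3a1, B2m, Clec2j and Sesn3 in each of the 28 segments on a log2(counts per 10000 + 1) axis, by region and piece number; points are segments and bars the mean of a region in a piece. For the first 3 genes the stroma of piece 1 sits with the interface (Apoe 1.62 and 0.955). For these genes the interface of piece 2 sits with or above the stroma (Apoe 119.6). Clec2j and Sesn3 are high in both regions of piece 1.

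Other macrophage genes fell with Apoe in the pooled segments. Of the 21 members of the Macrophage list, all tested, 4 fell (against 0.393% of all tested targets) and none rose. The median difference of the list was -0.45. Ctss, a lysosomal cathepsin, was at 1.60 ± 4.88 (SD, n = 13) at the interface and 7.67 ± 10.6 (SD, n = 15) in stroma, a difference of -1.80 (SE 0.353, adjusted p = 0.000258, limma). Lgmn, the asparaginyl endopeptidase of lysosomes, differed by -1.57 (adjusted p = 0.00158), and C1qa, a chain of complement C1q, by -1.19 (adjusted p = 0.0428). The interface segment of piece 2 had 17.8, 16.2 and 16.2 for these 3 genes, and the interface means of pieces 1 and 4 lay between 0 and 0.392. The median of the list was 0.06 with the piece as a fixed block, and none of it was called. Summed over the list, the macrophage level was 5.46 to 12.4 at the interface and 6.21 to 17.5 in the stroma of piece 1. It was 261.9 at the interface and 70.4 to 163.3 in the stroma of piece 2, 35.6 to 179.8 in the stroma of piece 3, and 55.8 to 275.9 in that of piece 5.

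Collagens and other products of fibroblasts made up the largest group of falls. All 25 members of the Fibroblast and matrix list were tested, 11 fell (against 0.393% of all tested targets) and none rose, and the median difference was -0.86, against 0.06 over all. Col3a1, the type III collagen of loose connective tissue (chromosome 1 from 45311538 to 45349706, protein coding), was at 8.60 ± 22.2 (SD, n = 13) at the interface and 55.2 ± 31.8 (SD, n = 15) in stroma. At the interface, pieces 1 and 4 lay between 1.27 and 5.64 and piece 2 had 82.5. The stroma of piece 1 had 4.39 and 2.87, that of piece 2 had 85.8, 44.5 and 59.97, and the other stroma segments lay between 13.5 and 114.7. The difference of Col3a1 was -3.21 (SE 0.341, adjusted p = 1.66e-17, limma) in the pooled segments and -0.25 (SE 0.464, adjusted p = 0.999) with the piece as a fixed block.

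The 2 chains of type I collagen, the main fibre of skin, followed the same order. Col1a1 was at 21.5 ± 43.8 (SD, n = 13) at the interface and 84.3 ± 44.9 (SD, n = 15) in stroma. Its interface values were 3.60 to 20.1 in piece 1, 7.27 to 11.6 in piece 4 and 166.5 in piece 2, and the stroma of piece 1 had 4.85 and 11.5. The pooled difference was -2.36 (SE 0.243, adjusted p = 1.26e-18, limma), against 0.34 (SE 0.317) with the piece as a fixed block. Col1a2 differed by -2.42 and Sparc, a collagen-binding glycoprotein, by -2.21. The proteoglycans Bgn, Dcn and Lum, the gelatinase Mmp2, the matrix protein Postn, Fstl1 and the intermediate filament Vim fell by 1.73, 1.65, 1.37, 1.77, 1.77, 1.70 and 1.49 respectively. Of these 7, only Vim was named by the rule for named genes. None of the 25 members was called with the piece as a fixed block, where their median was -0.08. The summed level of the list was 15.1 to 36.1 at the interface and 25.4 to 34.4 in the stroma of piece 1, and 446.2 at the interface and 203.7 to 367.5 in the stroma of piece 2.

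**Figure D3:**
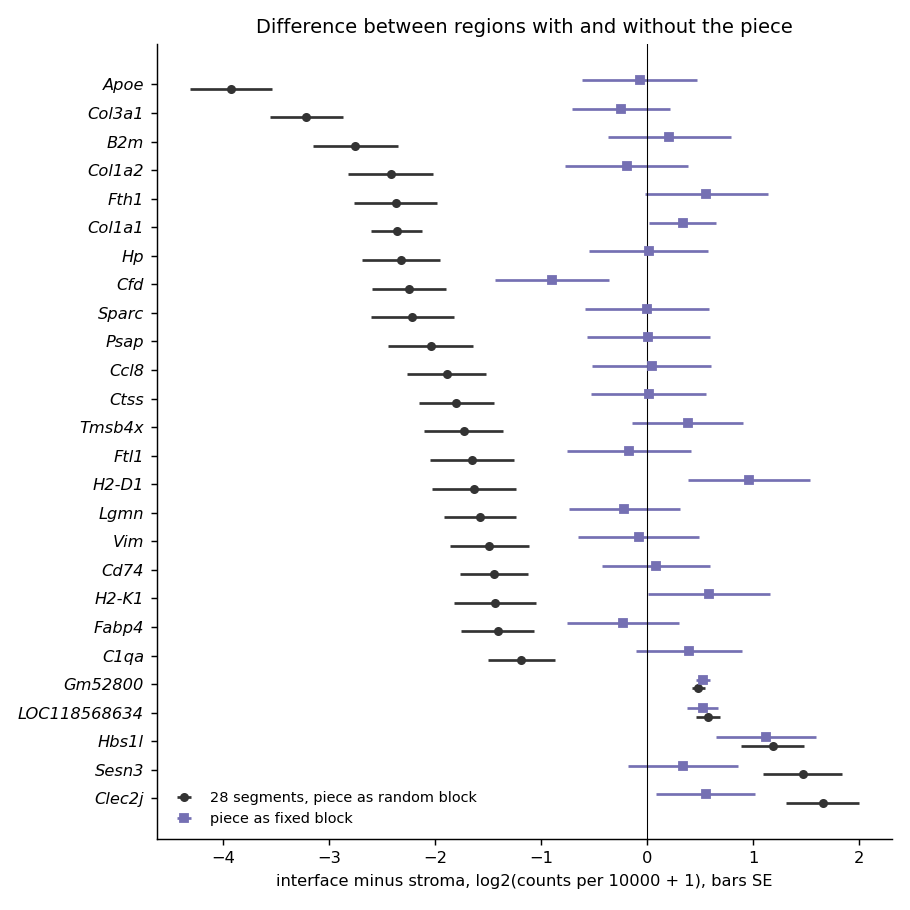
Interface minus stroma difference of the 26 named targets on the log2(counts per 10000 + 1) scale with SE bars, for all 28 segments with the piece as a random block (circles) and with the piece as a fixed block (squares). Apoe lies at -3.93 and -0.07, Col3a1 at -3.21 and -0.25; Gm52800 keeps its place (0.49 and 0.53).

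B2m and 2 heavy chains of MHC class I presentation fell. Of the 13 members of the MHC class I list, 11 were on the panel and 9 were tested. Of these 9, 3 fell (against 0.393% of all tested targets), and the median of the 9 was -0.28. B2m (chromosome 2 from 122147687 to 122153082, protein coding) was at 4.16 ± 12.4 (SD, n = 13) at the interface and 18.1 ± 11.4 (SD, n = 15) in stroma. Its interface levels were 0 to 2.19 in pieces 1 and 4 and 45.3 in piece 2. In stroma piece 1 had 1.62 and 0.955, piece 2 had 20.1, 8.91 and 17.3, and the other 10 segments lay between 6.74 and 36.3. The pooled difference was -2.75 (SE 0.400, adjusted p = 1.35e-08, limma), and with the piece as a fixed block it was 0.21 (SE 0.580, adjusted p = 0.999).

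The heavy chains H2-D1 and H2-K1 showed the same arrangement of pieces. H2-D1 was at 5.42 ± 12.5 (SD, n = 13) and 14.1 ± 9.54 (SD, n = 15), a difference of -1.63 (SE 0.399, adjusted p = 0.0142, limma). H2-K1 was at 2.36 ± 4.68 and 6.86 ± 4.25, a difference of -1.44 (SE 0.386, adjusted p = 0.0457, limma). Within piece 1 the 2 genes differed by 0.61 and 0.31, and within piece 2 by 1.72 and 1.18, so both pieces lay on the other side of 0. Probes for class I heavy chains can share sequence with their close relatives, so the share of each gene is uncertain.

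The promoters of these 3 genes are shown because they were called in 1 direction in the pooled segments. Each runs from 250 bases before to 50 after the first listed start in RefSeq, 5′ to 3′ on the strand of the gene, in build GRCm38.p6. The RefSeq span of H2-K1 begins at 34000619 on the minus strand, so its whole window lies inside that span. TATAAA matched at position 35 relative to the listed start of H2-K1 and at -26 for H2-D1. The windows are thus not aligned on like starts. Capitals mark matches on either strand to GGGNNTTNCC, the letters of a kappa B site, and to CCAAT, the CCAAT box; no 2 matches overlap. They lie at chr2:122147437-122147736 on the plus strand (B2m), chr17:35262844-35263143 on the plus strand (H2-D1) and chr17:34000298-34000597 on the minus strand (H2-K1).
B2m: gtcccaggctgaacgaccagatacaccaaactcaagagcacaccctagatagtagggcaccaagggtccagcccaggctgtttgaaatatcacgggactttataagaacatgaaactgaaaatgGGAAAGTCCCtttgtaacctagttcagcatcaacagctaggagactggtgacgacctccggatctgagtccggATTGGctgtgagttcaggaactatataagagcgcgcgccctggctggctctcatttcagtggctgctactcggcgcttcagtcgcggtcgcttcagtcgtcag
H2-D1: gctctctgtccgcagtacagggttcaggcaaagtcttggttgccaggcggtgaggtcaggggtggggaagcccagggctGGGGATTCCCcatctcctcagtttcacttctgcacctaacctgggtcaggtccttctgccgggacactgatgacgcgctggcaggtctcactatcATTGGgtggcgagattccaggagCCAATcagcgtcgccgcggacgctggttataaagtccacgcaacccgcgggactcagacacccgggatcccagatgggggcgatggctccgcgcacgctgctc
H2-K1: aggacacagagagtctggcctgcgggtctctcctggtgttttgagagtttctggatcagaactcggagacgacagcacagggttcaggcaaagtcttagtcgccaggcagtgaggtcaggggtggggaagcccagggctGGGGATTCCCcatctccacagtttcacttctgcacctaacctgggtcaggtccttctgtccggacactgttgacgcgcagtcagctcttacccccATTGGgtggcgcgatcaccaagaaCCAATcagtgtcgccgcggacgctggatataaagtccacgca

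GGGNNTTNCC occurred once in each of the 3 windows and in 4.71% of 27025 RefSeq promoters of this length. CCAAT occurred once for B2m and 2 times for each heavy chain, and in 37.9% of all promoters. GAAANNGAAA, letters used here for an interferon response element, was matched once in the window of B2m, which leaves it in small letters. It was matched in 3.49% of all promoters. The windows of H2-D1 and H2-K1 held 0 matches to these exact letters, and other forms of the element were not searched. A match of letters is a description and does not show that a factor binds there. A missing match does not show that an element is absent.

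MHC class II was represented among the falls by Cd74, its invariant chain, which guides class II molecules to the endosome. Cd74 was at 0.923 ± 2.67 (SD, n = 13) at the interface and 4.11 ± 4.66 (SD, n = 15) in stroma, a difference of -1.44 (SE 0.323, adjusted p = 0.00315, limma). It was the 1 call among 6 tested members of the MHC class II list, against 0.393% lower among all tested targets. The median of the list was -0.37. Cd74 means were 0.193 at the interface and 0.808 in the stroma of piece 1, and 9.70 and 3.45 in piece 2. The order of these means was therefore opposite in the pieces holding both. They rest on few counts, with 7 and 0 in the stroma segments of piece 1 and 6 in the interface segment of piece 2.

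Genes of iron storage and haem binding included 3 falls among 8 tested of 11 listed members, against 0.393% of all tested targets. The median of the list was -0.32. Fth1 and Ftl1, the heavy and light chains of ferritin, fell by 2.37 (SE 0.392, adjusted p = 1.80e-06) and 1.65 (SE 0.398, adjusted p = 0.0115) in limma's fit. Hp, haptoglobin, which binds free haemoglobin, fell by 2.32 (SE 0.367, adjusted p = 4.38e-07, limma), from 13.2 ± 17.6 (SD, n = 15) in stroma to 1.04 ± 3.12 (SD, n = 13) at the interface. The 3 differences were 0.56, -0.17 and 0.01 with the fixed block. Psap, the precursor of the lysosomal saposins, fell by 2.04 (SE 0.398, adjusted p = 0.000238, limma) and differed by 0.01 with the fixed block.

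Only 1 chemokine was called among 11 tested of 15 listed, against 0.393% lower among all tested targets. Ccl8, a ligand that attracts monocytes, was at 1.51 ± 3.95 (SD, n = 13) at the interface and 6.80 ± 4.90 (SD, n = 15) in stroma. Its difference was -1.89 (SE 0.369, adjusted p = 0.000238, limma), and it was 0.04 with the piece as a fixed block. The interface segment of piece 2 had 14.6, against means of 0.230 and 0.807 in pieces 1 and 4. The median of the chemokine list was -0.06.

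Cfd fell too, and was low at the interface of piece 2 as well. Cfd, adipsin, a serine protease secreted by fat cells, was at 0.285 ± 0.421 (SD, n = 13) at the interface and never above 1.33 there. In stroma it was at 12.3 ± 17.6 (SD, n = 15), with a lowest value of 0, a median of 3.08 and a highest value of 57.4. Its difference was -2.25 (SE 0.351, adjusted p = 2.85e-07, limma). In piece 2 the interface had 0 and the 3 stroma segments 17.5, 9.02 and 2.80, whereas in piece 1 all 10 segments lay between 0 and 0.839. With the piece as a fixed block the difference was -0.90 (SE 0.541, adjusted p = 0.999). Fabp4, a fatty acid carrier of fat cells and capillaries, differed by -1.41 (adjusted p = 0.0115) and by -0.23 with the fixed block. The Adipocyte list held these 2 calls among 9 tested members, against 0.393% lower among all tested targets. Its summed level reached 126.4 in 1 stroma segment of piece 3 against a median of 3.82 at the interface.

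Of the 44 targets that fell, 9 had differences below 0 within both piece 1 and piece 2: C3, Cnbp, Crip1, Cst3, Cyp2f2, Dcn, Fstl1, Igfbp4 and Lgals1, none of them named by the rule. Those of Cst3, Dcn, Igfbp4 and Lgals1 lay between -0.42 and -0.04 in each piece. C3, the central complement protein, differed by -1.24 (adjusted p = 0.0214) in the pooled segments, -0.81 within piece 1 and -1.63 within piece 2. Cnbp, a nucleic acid binding protein, differed by -1.05 (adjusted p = 0.0214), -1.03 and -1.07. Neither gene was called with the piece as a fixed block (adjusted p = 0.999 for each, limma). Above the limit of quantitation, the larger of 2 counts and a bound set by the negative probes, Cnbp was found in 1 of 13 segments at the interface and in 7 of 15 in stroma. The actin regulator Tmsb4x, named by the rule, fell by 1.73 (SE 0.377, adjusted p = 0.00202, limma). It and Vim were the 2 calls among 13 members of the Cytoskeleton and actin list, all tested, against 0.393% lower among all tested targets. The other falls were Cst3, C4b, Dpt, Cd300ld3, Gpx3, Serpina3n, Igfbp4, Lgals1, Fcgrt, Ddx17, Wfdc17, Lmna, Cyp2f2, Crip1 and Serping1, with differences of -1.82 to -0.90. Dpt and Cyp2f2 exceeded the limit of quantitation in 0 interface segments and were tested only through their stroma values. Other falls exceeded it in only 1 or 2 interface segments and so also passed the filter through stroma. Among them were Cfd (1 at the interface and 10 in stroma), Ccl8 (1 and 14), Fth1 (2 and 13) and Hp (2 and 11). Hbs1l, a rise, passed it through the interface (12 and 2). For such targets the direction of the call is not independent of the filter.

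Clec2j and Sesn3 were the largest of the 5 rises. Clec2j belongs to the C-type lectin receptor genes and is listed as a pseudogene by RefSeq at chromosome 6 from 128655105 to 128657027. It was at 31.6 ± 18.3 (SD, n = 13) at the interface and 11.2 ± 10.8 (SD, n = 15) in stroma. The 8 interface segments of piece 1 lay between 29.25 and 61.3, that of piece 2 had 16.2 and those of piece 4 had 7.96, 9.37, 8.001 and 15.4. The 2 stroma segments of piece 1 had 30.5 and 37.7, and the other 13 lay between 0 and 21.6. High values were thus found in both regions of piece 1 and in none of the other segments. The pooled difference was 1.66 (SE 0.342, adjusted p = 0.000749, limma), and 0.56 (SE 0.467, adjusted p = 0.999) with the piece as a fixed block.

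Sesn3, a sestrin that restrains growth signalling under stress (chromosome 9 from 14276301 to 14326134, protein coding), was also highest in piece 1. It was at 20.9 ± 11.4 (SD, n = 13) at the interface and 7.15 ± 7.06 (SD, n = 15) in stroma. Piece 1 held 17.5 to 43.6 at the interface and 19.4 and 27.7 in stroma, and the remaining stroma segments had at most 8.93. The interface segment of piece 2 had 8.08, and those of piece 4 had 7.295, 4.38, 16 and 12. Its difference was 1.47 (SE 0.372, adjusted p = 0.0214, limma) and 0.34 (SE 0.517) with the fixed block. Among interface segments alone the level differed between pieces 1, 2 and 4 for Clec2j (adjusted p = 4.52e-12) and Sesn3 (adjusted p = 4.90e-05, F test in limma).

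The other 3 rises were Gm52800, LOC118568634 and Hbs1l, a gene of ribosome rescue. Gm52800 was at 259.3 ± 71.4 (SD, n = 13) at the interface and 201.8 ± 98.3 (SD, n = 15) in stroma, and the groups overlapped widely (156.6 to 420.2 against 81.3 to 384.1). It was the 1 call with the piece as a fixed block, with a difference of 0.53 (SE 0.0686, adjusted p = 1.24e-10, limma), and 0.38 (adjusted p = 1) and 0.86 (SE 1.44, adjusted p = 0.592) within pieces 1 and 2. It was also called in the random-block fit (0.49). That random-block call was lost in limma with a pseudocount of 5 (0.47, adjusted p = 0.315) and after thinning (0.51, adjusted p = 1). With the filter at 25% of segments its adjusted p was 0.0119, so the small SE of the random-block fit depends on these settings. The fixed-block fit was not repeated with them. LOC118568634 differed by 0.58 in the pooled segments (adjusted p = 0.00039) and by 0.53 (adjusted p = 0.586) with the fixed block. Both targets had counts in every segment and are not assigned a function here. Hbs1l was at 2.30 ± 1.16 (SD, n = 13), with every interface segment above 0, and at 0.545 ± 1.13 (SD, n = 15) in stroma, where 14 of 15 segments lay between 0 and 1.04 and 1 had 4.46. Its difference was 1.19 (SE 0.294, adjusted p = 0.0169, limma), 1.12 (SE 0.471, adjusted p = 0.999) with the fixed block, and 1.03 and 1.32 within pieces 1 and 2. It was above the limit of quantitation in 12 of 13 segments at the interface and in 2 of 15 in stroma.

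Genes that define neutrophils were near the limit of the assay in both regions, and none was called. Of 25 members of the Neutrophil list 14 were tested, with a median difference of 0.09. S100a8, a calcium-binding alarmin that fills the neutrophil cytosol, was at 1.72 ± 1.72 (SD, n = 13) at the interface and 1.38 ± 1.66 (SD, n = 15) in stroma, a difference of 0.27 (SE 0.307, adjusted p = 0.849). S100a9, its partner, differed by 0.05 (SE 0.306, adjusted p = 0.978). Ly6g, the surface antigen of mouse neutrophils, exceeded the limit of quantitation in 3 of 13 and 2 of 15 segments, and Csf3r and Cxcr2 did so too rarely to be tested. The summed level of the list was 2.52 to 14.9 (median 10.8) at the interface and 6.37 to 18.95 (median 11.2) in stroma, which is 0.872 times the panel average per target over the 28 segments. The same ratio was 4.64 for the Fibroblast and matrix list and 2.75 for the Macrophage list. These ratios set different probes side by side, whose efficiencies can differ, so they describe tag counts and not transcript abundance.

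Lists of neutrophil states and of general cell activity held no call. For Interferon response, Tumour-associated neutrophil and Eicosanoid and lipid the tested members numbered 15, 12 and 10, and the median differences were -0.05, 0.03 and 0.05. Proliferation (9 tested, median 0.08), Glycolysis and hypoxia (10 tested, -0.16) and Mitochondrial respiratory chain (14 tested, below 0.01 in size) had none either. The 14 tested members of the Translation list had a median of -0.48, and -0.19 with the piece as a fixed block. In all, 247 of 321 list members were tested and 26 were called, each of them lower at the interface, against 0.393% of all tested targets; the lists were chosen with earlier results of these data known.

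Keratinocyte markers also varied by piece, and some markers of other cells stood out in single segments. The Keratinocyte list, which marks the epithelial cells from which these carcinomas arise, had 18 tested members, 0 called for the region in limma's random-block fit and 7 that differed between pieces with the region in the fit. Its summed level was 79.2 at the interface and 42.1 to 78.3 in the stroma of piece 2, and between 10.6 and 25.7 in every segment of the other pieces. Krt14, a basal keratin, was at 17.8 in the interface segment of piece 2 and at 16.6, 4.62 and 9.84 in its stroma. Immunoglobulin genes were high in single stroma segments: Igkc reached 259.6 in 1 stroma segment of piece 2 and 56.8 in 1 of piece 5, and 2.70 at most at the interface. Skeletal muscle genes summed to 79.1 in 1 stroma segment of piece 3 and to 9.70 at most at the interface. Endothelial and mural (8 tested), Skeletal muscle (10), T cell (6), B and plasma cell (8) and Erythroid (1) held no call, and their medians lay between -0.29 and 0.12. The part of these cells in the called differences was not tested.

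**Figure D4:**
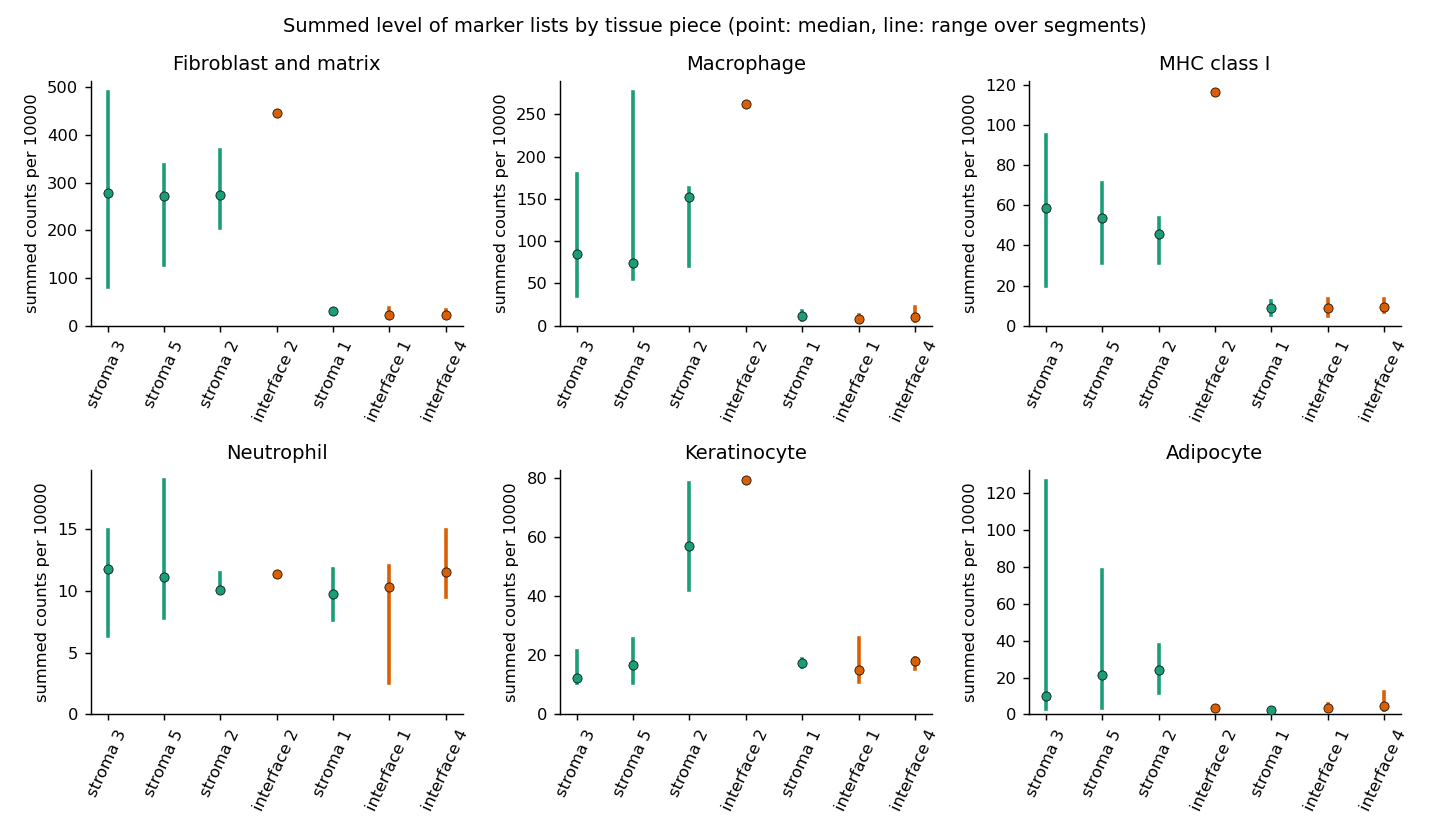
Summed level of 6 gene lists in counts per 10000, by region and piece number; points are the median and lines the range over the segments of a region in a piece, and each panel has its own axis from 0. The Fibroblast and matrix, Macrophage and MHC class I sums are low in both regions of piece 1 and in piece 4, and high in pieces 2, 3 and 5, Keratinocyte is high only in piece 2 (42.1 to 79.2), and the Neutrophil ranges overlap in all (2.52 to 18.95).

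The piece was then tested as the term, with the region in the fit, an alternative added after the values had been seen. By an F test in limma 101 of 11190 targets (0.903%) differed between pieces, and 34 of them were among the 49 called for the region. Among the interface segments alone 196 targets (1.75%) differed between pieces 1, 2 and 4, of which 35 were among the 49. Piece 2 entered that interface test with 1 segment of 6185 counts, which has no spread of its own. Among the stroma segments alone 7 (0.0626%) differed between pieces 1, 2, 3 and 5, of which 5 were among the 49. Apoe (adjusted p = 8.51e-09), Col3a1 (adjusted p = 4.81e-08) and Col1a1 (adjusted p = 6.93e-09, F test in limma) were 3 of these 7.

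Parts of the order of the pieces were shared by most of the 44 targets that fell. The counts of the 44 given here were not set beside the same counts over all tested targets. They therefore do not show a trait particular to the 44. The stroma mean of piece 1 was below the stroma means of all other pieces in 42 of 44, and the interface segment of piece 2 was above the interface means of both other pieces in 36 of 44. Their median difference was -1.65 in the pooled segments and -0.05 with the piece as a fixed block, where 23 lay below 0, 20 above, and 1 (Sparc) at 0.00. Within piece 1 (8 interface and 2 stroma segments) 31 of the 44 lay below 0, and limma called 0 of 11190 targets (0%; 308 at an unadjusted p under 0.05). Within piece 2 (1 interface and 3 stroma segments) 30 of the 44 lay above 0. There 684 targets were called (6.11%), with the spread of the 1 interface segment assumed to equal that of the stroma segments and with a depth of 6185 counts in that segment. Only 8 of these were among the 49.

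Segments within the tumour on the same slide, which did not enter the choice or the fit, also differed by piece. Apoe was 0 to 1.08 in the 7 of piece 1 and 0 in both of piece 4, 2.59 and 6.10 in those of piece 5, and 10.4, 13.8 and 540.2 in those of piece 2, where depth was only 796 to 1921 counts. Clec2j was 43.2 to 128.3 in the 7 of piece 1, 27.5 to 50.3 in piece 2, 9.20 and 19.9 in piece 4, and 11.5 and 0 in piece 5. In piece 1, all 3 regions were thus low in Apoe and high in Clec2j.

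The difference between the regions was set against that on the relapse slide, which carries 22 interface and 14 stroma segments after treatment in 4 pieces. Stage, slide, plate and the tumour model named in the scan cannot be told apart in this contrast. The difference itself differed for 3 of 4901 tested targets (0.0612%), and relapse minus naive was above 0 for all 3. For Apoe the change was 3.70 (SE 0.803, adjusted p = 0.0108, limma), for Col3a1 3.46 (SE 0.715, adjusted p = 0.00583) and for Col1a1 3.11 (SE 0.628, adjusted p = 0.00583). On the relapse slide Apoe was at 8.98 ± 11.1 (SD, n = 22) at the interface and 24.3 ± 40.8 (SD, n = 14) in stroma, a difference of -0.25 (SE 0.563, adjusted p = 0.958). Its relapse means were 10.6 and 2.77 at the interface and in the stroma of piece 2, 7.12 and 20.7 in piece 3, and 74.1 in the 2 stroma segments of piece 1. With the piece as a fixed block 0 targets were called (limma; 169 at an unadjusted p under 0.05), and the change of Apoe was 0.27. No call was left for these 3 genes when naive piece 1, 3, 4 or 5 or relapse piece 3 was left out. Within the relapse slide 1 target was called between the regions (of 4901, 0.0204%): Wfdc17, at -1.88 (adjusted p = 0.0032, limma), which was not called with the piece as a fixed block (-1.41, adjusted p = 0.955).

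**Figure D5:**
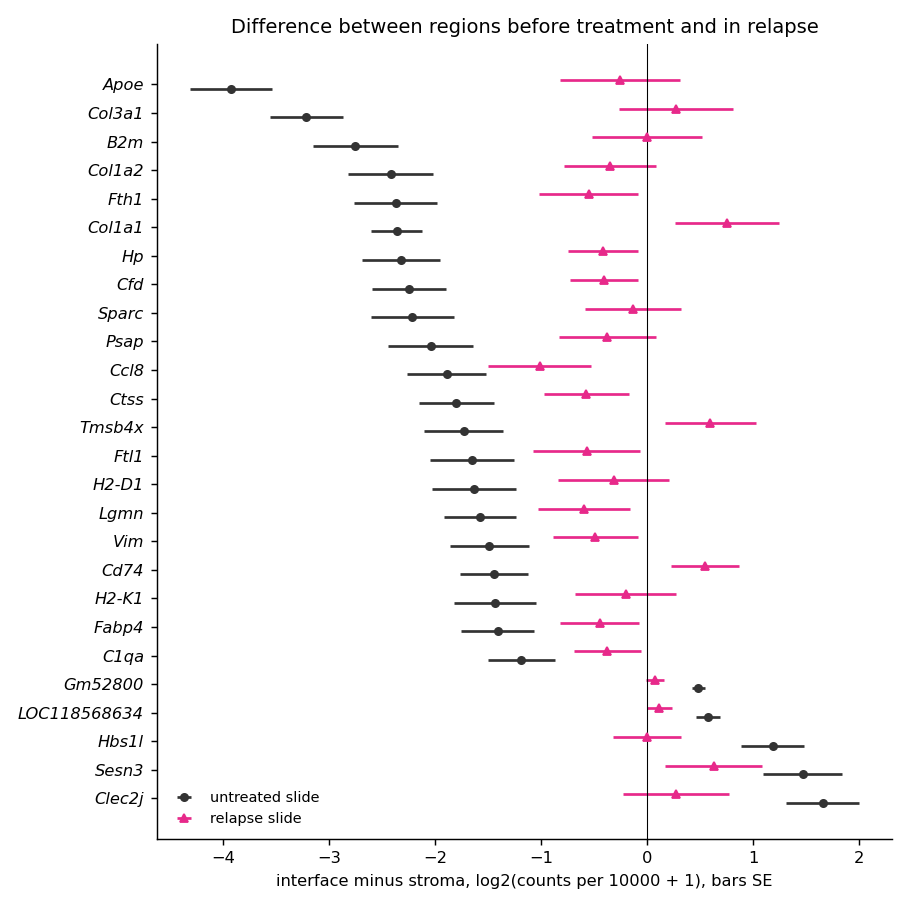
Interface minus stroma difference of the 26 named targets on the log2(counts per 10000 + 1) scale with SE bars, on the untreated slide (circles, 13 and 15 segments) and on the relapse slide (triangles, 22 and 14 segments). Apoe lies at -3.93 and -0.25, Col3a1 at -3.21 and 0.27, and the relapse values of all but Ccl8 lie within 1 of 0.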

How the data were processed

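The deposited matrix holds normalised signal for 19962 targets beside the negative-probe one, per the file headers. The upper-quartile factor of each segment, a ratio, was deposited by the authors beside it, as was the negative-probe signal of each segment. The submitters' processing notes name Seurat and mm10; aligner and counter are not given in the sources used here. Signal times the factor gave whole counts for 99.986% of values (tolerance 1e-06), with a floor of 1; 3 targets held other values. No 2 of the 28 segments had identical counts (0 pairs).

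Counts above the floor were scaled to 10000 per segment and taken as log2(value + 1). Tested were targets above the limit of quantitation (the larger of 2 counts and the negative probes' geometric mean times their geometric SD to the power 2) in at least 10% of the 28 segments. Tissue pieces were found by joining positions closer than 8000 coordinate units. Comparisons used limma 3.58.1 under R 4.3.3 (two-sided, lmFit then eBayes with a trend), blocked at random on the piece and adjusted by Benjamini-Hochberg at 0.05. A planned count test was not run, since the deposited unit is signal. Segments are the unit of replication, and p-values measure only the spread between segments that share tissue. Depth was compared with permutation tests of the segment labels, under Python 3.11.15 with numpy 2.4.6. The random-block fit was run on simulated counts with known changes between the regions and no difference between pieces. That run therefore does not bear on calls where region and piece cannot be told apart.

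Named are Apoe, Col3a1, B2m, Clec2j and Sesn3; the 10 largest rises and falls called whose mean is above the median of tested targets; and called list members, at most 4 a list. Members and lists were chosen with earlier results of these data known. Gene names are as deposited, and positions and promoters are RefSeq's on GRCm38.p6. Alternatives for scaling, depth, pseudocount, filter, block and pieces were tried.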

Additional observations from a re-analysis of the deposited data

Results flagged for a closer look

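For 3 genes the interface minus stroma difference itself differed between the untreated and the relapse slide by limma's interaction test. Relapse minus naive was 3.70 for Apoe, 3.46 for Col3a1 and 3.11 for Col1a1 on the log2(level + 1) scale. With the piece as a fixed block these values were 0.27, 0.49 and 0.61 and none was called. Without relapse piece 2 only Col1a1 was called (2.82, adjusted p = 0.0108), and without relapse piece 3 none of the 3 was, with values of 3.33, 2.77 and 1.85. Slide, plate, stage and the tumour model named in the scan cannot be told apart here.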

How the results depend on the processing

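The 49 calls of the untreated comparison became 124 (120 lower) with the authors' deposited normalised values, where the median of all targets was -0.11; 3 after thinning to 1000 counts, 15 with a pseudocount of 5, 1 with the piece as a fixed block, 1 with the mean per piece and region, 2 using only the pieces that hold both regions with the fixed block, 0 within piece 1 (limma; 308 at an unadjusted p under 0.05) and 684 within piece 2. Leaving out a piece gave 7 (without piece 1) to 89 (without piece 5). Upper-quartile scaling, depth as a covariate, a pseudocount of 0.5, no filter, a filter at 25%, no block and the 3-region fit gave 41 to 71, and pieces joined below 5000 units gave 49. The planned edgeR and DESeq2 tests were not run, since the deposited unit is signal.

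With the piece as a fixed block 12 of the 26 named genes changed sign, with the same values when only the pieces holding both regions were used: B2m 0.21, Fth1 0.56, Col1a1 0.34, Hp 0.01, Psap 0.01, Ctss 0.02, C1qa 0.40, H2-D1 0.96, H2-K1 0.58, Cd74 0.08, Ccl8 0.04 and Tmsb4x 0.38. Within piece 1 the sign changed for 7: Fth1 0.22, Col1a1 0.12, Cfd 0.16, H2-D1 0.61, H2-K1 0.31, Fabp4 0.09 and Tmsb4x 0.19. Within piece 2 it changed for 19: Apoe 1.12, Col3a1 0.42, B2m 1.56, Col1a2 0.70, Fth1 1.29, Col1a1 0.79, Hp 0.32, Sparc 0.37, Psap 0.92, Ctss 1.26, Lgmn 1.08, C1qa 1.50, H2-D1 1.72, H2-K1 1.18, Cd74 1.33, Ftl1 0.19, Ccl8 0.96, Tmsb4x 0.79 and Vim 0.24. These settings keep fewer segments that bear on the region. No named gene changed sign under the other settings run. All 26 stayed called with no block, with upper-quartile scaling and without piece 2, 25 with the deposited values (Hbs1l not) and with depth as a covariate (C1qa not), 7 without piece 1 and 3 after thinning.

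The 3 calls of the relapse comparison became 54 with the deposited values, 7 with depth as a covariate, 5 with no block, 0 with no filter (limma, while 1196 had an unadjusted p under 0.05) and 0 with the piece as a fixed block (169); leaving out a piece gave 0 to 7, and the 2 calls without relapse piece 3 were both lower and not among the 3. The depth difference of 0.24 was -1.99 when compared within pieces (exact permutation test over 180 arrangements, p = 0.05, 9 interface and 5 stroma segments), and -0.32 to 0.89 when a piece was left out, -0.32 being without piece 5. For settings whose construction does not show it, the cause was not tested.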

Other observations

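The panel target named mCherry/tdTomato, chosen here after its values were seen, was at 6.18 ± 3.31 (SD, n = 13) at the interface and 3.05 ± 2.60 (SD, n = 15) in stroma, a difference of 0.96 (SE 0.393, adjusted p = 0.444, limma). Its means in piece 1 were 7.18 at the interface, 4.21 in stroma and 8.20 within the tumour, and in piece 2 they were 1.62, 1.66 and 2.29. What this probe detects in these tissues is not stated in the labels or the annotation.

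Immunoglobulin genes singled out after their values were seen were concentrated in few stroma segments. Igha reached 393.6 in 1 stroma segment of piece 2, the one in which Igkc was 259.6, and 43.8 in 1 of piece 5, against 3.23 at most at the interface.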
